A study of Rattus norvegicus with 50 samples.

Results

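Livers of vehicle-treated rats taken 72 h after a brain injury were compared with livers taken 24 h after it. The comparison used 10 of the 50 arrays of the study, 5 per time, chosen by their treatment and time labels, with 1 array per animal. All 10 animals were male Sprague Dawley rats of about 3 months that had received a controlled cortical impact (CCI, a mechanical contusion of the exposed brain) and saline vehicle. For comparison, the same 2 times were read in injured rats given anakinra (an interleukin-1 receptor antagonist, 100 mg/kg) or erythropoietin (EPO, 2500 IU/kg), 5 rats at each time. Vehicle rats at 7 days and intact sham rats, 5 of each, served as further levels. RNA from the median liver lobe was hybridised to Affymetrix Rat Gene 1.0 ST arrays. Sham animals carry no time and no vehicle in their labels, so the effect of time after injury cannot be told apart from that of time since surgery, handling or saline. The sources used here do not give the hour of collection or the dosing schedule.

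The liver answers injury elsewhere in the body with the acute phase response, in which interleukin-6 and interleukin-1 raise the synthesis of secreted plasma proteins by hepatocytes. Secreted proteins are folded in the endoplasmic reticulum (ER), where chaperones and the degradation machinery for misfolded proteins are induced by the unfolded protein response through the transcription factors ATF6 and XBP1. Hepatocytes also make cholesterol, through a chain of enzymes controlled by SREBP2, and carry the drug-metabolising enzymes and transporters that the title of the study names as its subject.

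All values are the authors' log2 values from robust multi-array averaging (RMA), so a difference of 1 is 2-fold, and differences are 72 h minus 24 h. Each of 14506 genes was tested with limma, with p-values adjusted by the Benjamini-Hochberg method over all of them and a threshold of 0.05. The defining hepatocyte markers were high on all 10 arrays: Alb (albumin) averaged 13.97 ± 0.05 at 72 h and 13.94 ± 0.03 at 24 h, and Ttr (transthyretin) 13.56 ± 0.04 at 72 h and 13.53 ± 0.05 at 24 h (SD, n = 5 each). Of the 10 arrays, 3 had a narrower spread of values over all probes than the rest, 72 h arrays 2 (SD 1.99) and 5 (2.03) and 24 h array 3 (1.99), against 2.06 to 2.15 in the other 7. They are called narrow arrays below. The correlation between arrays over genes was 0.982 to 0.995 within 72 h, 0.975 to 0.994 within 24 h and 0.973 to 0.995 between the times, so the ranges overlapped.

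Derl3 fell and Adamts9 and Slc17a3 rose at 72 h, and these 3 of 14506 genes (0.0207%) were all that passed. The median difference over all genes was 0.00, and 7 genes differed by 2-fold or more. At an unadjusted p under 0.05 there were 472 genes (3.25%), fewer than the 725.3 that uniform p-values would give, with 243 lower at 72 h (1.68%) and 229 higher (1.58%). All 5 arrays at 72 h lay below all 5 at 24 h for 37 genes (0.255%), and above them for 24 genes (0.165%). These shares are the background against which the gene lists below are read. In bulk liver, fewer cells of a type and less RNA per cell cannot be told apart.

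Derl3 (probe 10832487) encodes derlin-3, a membrane protein of the ER that takes part in the removal of misfolded proteins. Its values were 6.82, 7.14, 6.57, 6.93 and 6.95 in the livers at 72 h, against 8.30, 8.22, 7.63, 8.24 and 8.06 at 24 h. The groups did not overlap, and the lowest 24 h value, that of a narrow array, was still above the highest 72 h value. Derl3 fell by 1.20 log2 (SE 0.22, adjusted p = 0.0169 by limma), which is 2.30-fold higher at 24 h than at 72 h. Without the narrow arrays the difference was -1.43.

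The promoter of Derl3 is shown because it carries the ER stress element, CCAAT and CCACG parted by 9 bases, through which ATF6 is known to act. The sequences are from RefSeq (GRCr8), 250 bases before to 50 after the start site, printed 5′ to 3′ along the gene. Capitals mark matches to the element on either strand and, in Derl3, also a CACGTG E-box. Hspa5, the main ER chaperone BiP, and Creld2, a secreted ER stress protein, are set beside it because theirs were the other promoters with the element among those of 23 clock, cholesterol, ER and passing genes found in the table, of 26 looked up.
Derl3, chr20:12766416-12766715, minus strand: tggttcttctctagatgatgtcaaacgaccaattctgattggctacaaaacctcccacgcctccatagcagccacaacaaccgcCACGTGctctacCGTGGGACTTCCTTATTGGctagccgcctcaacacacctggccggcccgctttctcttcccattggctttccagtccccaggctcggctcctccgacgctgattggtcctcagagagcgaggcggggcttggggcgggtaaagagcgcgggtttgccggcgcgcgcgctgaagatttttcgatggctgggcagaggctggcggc
Hspa5, chr3:38452766-38453065, plus strand: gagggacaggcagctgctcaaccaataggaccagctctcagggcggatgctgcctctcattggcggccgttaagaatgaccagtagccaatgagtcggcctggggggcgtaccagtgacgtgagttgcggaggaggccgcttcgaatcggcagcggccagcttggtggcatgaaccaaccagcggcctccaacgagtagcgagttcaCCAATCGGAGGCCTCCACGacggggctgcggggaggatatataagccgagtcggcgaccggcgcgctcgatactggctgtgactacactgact
Creld2, chr7:121789134-121789433, plus strand: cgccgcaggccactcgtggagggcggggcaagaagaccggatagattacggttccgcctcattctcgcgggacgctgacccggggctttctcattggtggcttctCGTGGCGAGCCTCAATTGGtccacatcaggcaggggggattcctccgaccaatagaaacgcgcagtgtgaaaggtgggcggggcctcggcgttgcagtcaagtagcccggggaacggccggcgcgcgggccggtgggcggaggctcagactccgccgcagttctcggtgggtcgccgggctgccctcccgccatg
In Derl3 the element lies on the opposite strand at bases -154 to -136 from the start site, in Hspa5 on the gene's strand at -43 to -25, and in Creld2 on the opposite strand at -145 to -127. It occurs in 22 of the 33469 promoters of the table (0.0657%). The E-box of Derl3 lies at -166 to -161, and 6.42% of all promoters hold one. Hyou1, Sdf2l1 and Dnajb9 held no element in these windows. A match is a description of the letters and was not tested as a site.

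Of the 31 measured ER chaperones and unfolded protein response genes, Derl3 was the one that passed. Counted with it, 15 had an unadjusted p under 0.05 with the lower value at 72 h (48.4%, against 1.68% of all genes), 0 were higher, and 30 of 31 differences were below 0. The list's median difference was -0.22, against 0.00 over all genes, and its count was 15 without the narrow arrays too, with a median of -0.23 (2.09% of all genes lower).
Sdf2l1, a cofactor of BiP, had values of 9.13, 8.63, 8.55, 8.78 and 8.30 at 72 h, against 9.95, 9.16, 8.78, 9.30 and 9.42 at 24 h (difference -0.64, adjusted p = 0.816). Hyou1, a large ER chaperone, had 10.08, 9.79, 9.65, 9.77 and 9.76 at 72 h, against 10.50, 10.27, 9.92, 10.44 and 10.52 at 24 h (-0.52, adjusted p = 0.816). In both genes 4 of 5 arrays at 72 h lay below every 24 h array. Hspa5, among the brightest genes of the list, was 12.86, 12.82, 12.86, 12.84 and 12.91 at 72 h, against 12.92, 13.22, 12.91, 13.18 and 13.09 at 24 h. Its highest 72 h and lowest 24 h value both read 12.91, and the difference was -0.21 (adjusted p = 1.00). In Creld2 (-0.52) and Manf (-0.44), another secreted ER stress protein, the groups overlapped, and 24 h array 3 lay below all 72 h arrays. That narrow array was also the lowest of the 24 h arrays in the mean over the list, at 10.38 against 10.76 to 10.80 in the other 4, while the 72 h arrays spanned 10.31 to 10.53. Outside the list, Atp2a2 (SERCA2, the pump that fills the ER with calcium) was 11.37, 11.30, 11.37, 11.22 and 11.28 at 72 h, against 11.52, 11.56, 11.44, 11.66 and 11.77 at 24 h, without overlap (-0.28, adjusted p = 0.570). In other lists of stress genes, 0 of 20 cytosolic heat shock proteins and 0 of 21 genes of the ATF4 amino acid response had an unadjusted p under 0.05. Their median differences were both -0.02. Without the narrow arrays 2 heat shock genes were lower and 2 ATF4 genes higher, against 2.09% of all genes lower and 2.52% higher.

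**Figure D1:**
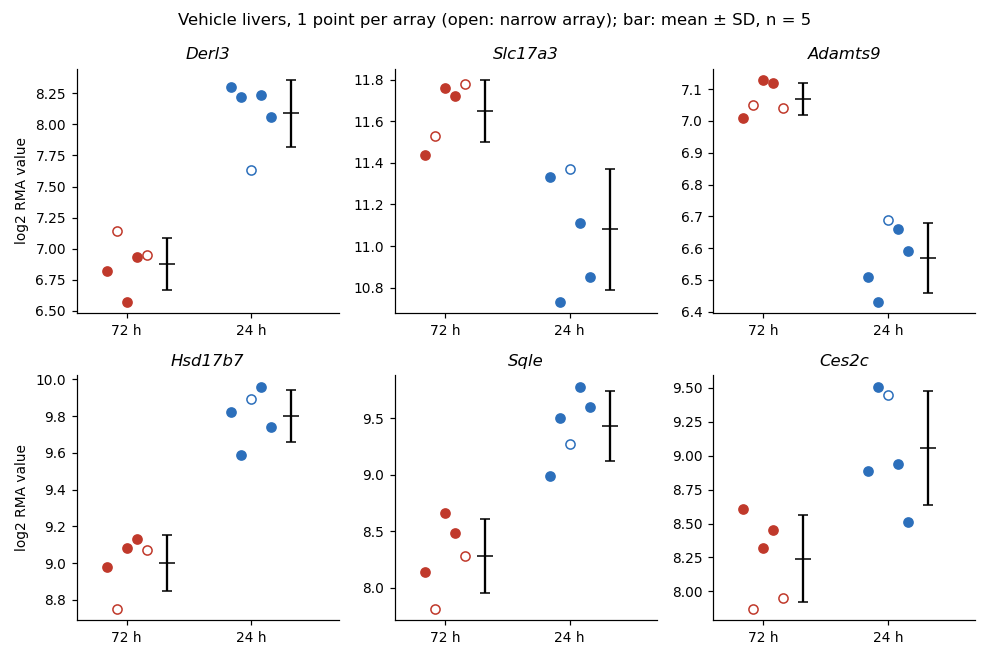
Log2 RMA value (y axis) of the 3 genes that passed and the 3 next by p-value in vehicle livers at 72 h (left) and 24 h (right). Each point is 1 array, open points are narrow arrays, and the bar is the mean ± SD of 5 arrays. The 72 h and 24 h points are apart in every panel except Ces2c, where a 24 h array at 8.51 lies below a 72 h array at 8.61.

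Slc17a3 (probe 10795218) encodes a carrier of the membrane, in humans known to transport urate and other organic anions. It was 11.44, 11.53, 11.76, 11.72 and 11.78 at 72 h, against 11.33, 10.73, 11.37, 11.11 and 10.85 at 24 h. The 24 h arrays were the more variable, and the lowest 72 h value (11.44) was just above the highest 24 h value (11.37). Slc17a3 rose by 0.57 log2 (SE 0.11, adjusted p = 0.0188 by limma), 1.48-fold. It was the only one of 24 uptake carriers that passed, and its paralog Slc17a1 was the other one higher at an unadjusted p under 0.05 (8.33%, against 1.58% of all genes). Aqp8, a hepatocyte water channel, had a difference of 0.38 (adjusted p = 0.570), with 3 of 5 arrays above every 24 h array. The phosphate transporter Slc34a2 was 9.84, 9.46, 10.13, 9.99 and 9.56 at 72 h, against 9.37, 8.94, 8.64, 9.16 and 7.98 at 24 h. Its groups did not overlap, the 24 h values were the more spread, and the difference was 0.98 (adjusted p = 0.193).

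Adamts9 (probe 10864185), a secreted protease of the extracellular matrix, was 7.01, 7.05, 7.13, 7.12 and 7.04 at 72 h, against 6.51, 6.43, 6.69, 6.66 and 6.59 at 24 h. The 5 values at 72 h lay between 7.01 and 7.13, all above the 24 h values. Adamts9 rose by 0.49 log2 (SE 0.09, adjusted p = 0.0169 by limma), 1.41-fold. In the list of 31 stellate cell and matrix genes, Thbs1 (thrombospondin-1) was the other with all 5 arrays above, at 7.71, 7.37, 7.74, 7.60 and 7.49 at 72 h, against 7.25, 7.27, 7.21, 7.11 and 7.19 at 24 h (0.38, adjusted p = 1.00). The median of that list was 0.00, and its mean level per array was 8.04 to 8.25 at 72 h and 8.0 to 8.22 at 24 h, with overlap.

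These 3 calls depend on the arrays included. Without 72 h array 3, and likewise without 72 h array 4, 0 genes passed (adjusted p of Derl3 0.0975 and 0.0639), and without 24 h array 1 only Slc17a3 did. Slc17a3 did not pass without 24 h array 2 (adjusted p = 0.166), 24 h array 5 (0.135) or 72 h array 5 (0.107), and Adamts9 did not without 24 h array 2 (0.0661). Without the narrow arrays only Derl3 passed, with an adjusted p of 0.0623 for both Adamts9 and Slc17a3. In a fit of the 10 arrays alone, Adamts9 (adjusted p = 0.212) and Slc17a3 (0.730) did not pass and Derl3, Hsd17b7 and Sqle did.

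Among the 18 measured enzymes of cholesterol synthesis 0 passed, but of the 39 lists this one had the largest share of lower members. An unadjusted p under 0.05 with the lower value at 72 h was found for 13 of 18 (72.2%, against 1.68% of all genes), 0 were higher, and the median difference was -0.40, against 0.00 over all genes. Without the narrow arrays the count was 11 and the median -0.34, against 2.09% of all genes lower. Averaged over the list, the arrays read 9.69, 9.36, 9.86, 9.86 and 9.73 at 72 h, against 10.10, 10.15, 10.08, 10.39 and 10.18 at 24 h. All 72 h arrays were below all 24 h arrays, whether narrow or not.
Hsd17b7, which reduces the keto group of sterol intermediates, was the gene closest to passing. It was 8.98, 8.75, 9.08, 9.13 and 9.07 at 72 h, against 9.82, 9.59, 9.89, 9.96 and 9.74 at 24 h, without overlap (difference -0.80, adjusted p = 0.0609). Sqle (squalene epoxidase, an early oxygen-requiring step) was 8.14, 7.81, 8.66, 8.48 and 8.28 at 72 h, against 8.99, 9.50, 9.27, 9.78 and 9.60 at 24 h, 2.22-fold higher at 24 h than at 72 h (difference -1.15, adjusted p = 0.0785). Lss (lanosterol synthase, which closes the sterol rings) had a difference of -0.56 (adjusted p = 0.210), and Idi1 (isopentenyl diphosphate isomerase) one of -0.94 (0.629). In 8 members (Acat2, Fdps, Fdft1, Sqle, Lss, Cyp51, Tm7sf2 and Hsd17b7) every 72 h array lay below every 24 h array, which held for 0.255% of all genes. They run from the first step, the thiolase Acat2, to the late sterol steps, while Ggps1, of the branch to geranylgeranyl groups, had a difference of 0.00. Srebf2, the regulator itself, was 9.79, 9.72, 9.83, 9.81 and 9.81 at 72 h, against 10.13, 9.82, 10.45, 10.12 and 10.24 at 24 h (-0.36, adjusted p = 0.940). Of 14 genes of sterol transport and sensing, 3 were lower at an unadjusted p under 0.05 (Srebf2, Stard4 and Abca1) and 1 was higher (Soat2). These are 21.4% lower and 7.14% higher, against 1.68% and 1.58% of all genes, and the median was -0.02. Leaving the narrow arrays out gave 1 lower and 1 higher, with a median of 0.06, against 2.09% of all genes lower and 2.52% higher.

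**Figure D2:**
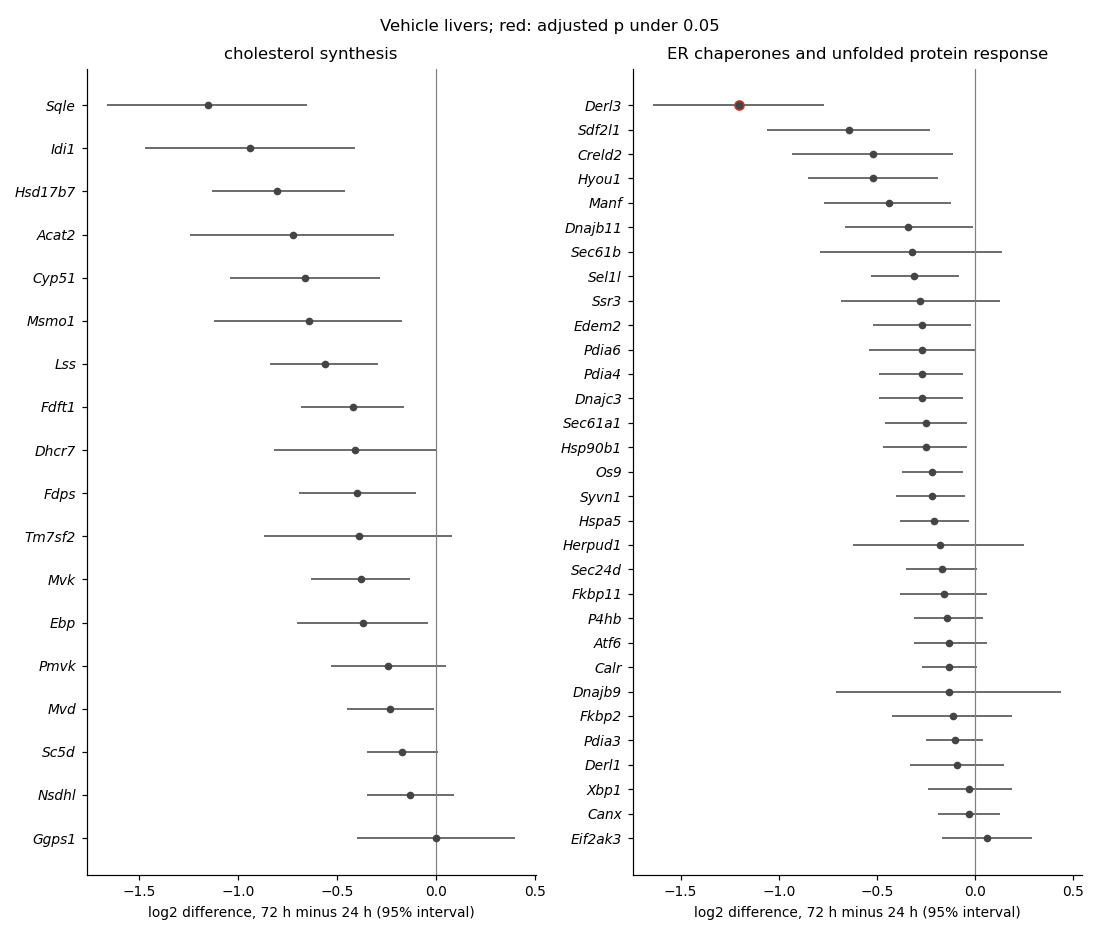
Difference between vehicle livers at 72 h and 24 h (x axis, log2, 72 h minus 24 h) for the 18 cholesterol synthesis genes (left) and the 31 ER chaperone and unfolded protein response genes (right), with 95% intervals from the limma fit, not adjusted for the number of genes. Derl3, in red, passed at an adjusted p under 0.05. Nearly all points lie left of 0, from -1.15 (Sqle) to 0.00 on the left and from -1.20 (Derl3) to 0.06 on the right.

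Of 36 positive acute phase proteins, 0 passed and 10 had lower values at 72 h by an unadjusted p under 0.05 (27.8%, against 1.68% of all genes), with 0 higher. The median difference was -0.11. Without the narrow arrays 15 were lower and 0 higher, with a median of -0.16, against 2.09% of all genes lower. The mean over the list was 11.36 to 11.46 on the 72 h arrays and 11.48 to 11.66 on the 24 h arrays, without overlap. Lbp, the lipopolysaccharide-binding protein, was 11.32, 12.12, 11.57, 11.76 and 12.17 at 72 h, against 12.34, 12.53, 12.39, 12.45 and 12.53 at 24 h (difference -0.66, adjusted p = 0.681). Its 24 h values were tight and its 72 h values ran from 11.32 to 12.17, highest in the 2 narrow arrays. Orm1 (orosomucoid, -0.54, adjusted p = 0.988) and Hp (haptoglobin, -0.17, 1.00), and with them Serpina3n and Serping1, also had all 5 arrays at 72 h below all 5 at 24 h. The fibrinogen chain Fga (-0.15) and the fibrinogen-like Fgl1 (-0.33) overlapped between the times. A2m (alpha-2-macroglobulin, the classical rat acute phase protein) ranged from 8.35 to 9.05 at 72 h and from 8.60 to 10.09 at 24 h, a difference of -0.60 with an SE of 0.52.

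Of 26 genes of interleukin-6 and interleukin-1 signalling, 7 had lower values at 72 h by the same criterion (26.9%, against 1.68% of all genes) and 0 had higher ones. Il1rn, among the 7, was also counted among the lower acute phase proteins. Without the narrow arrays 6 were lower and 0 higher, with a median of -0.12, against 2.09% of all genes lower. Stat3, the transcription factor that interleukin-6 activates, was 10.54, 10.87, 10.46, 10.96 and 10.87 at 72 h, against 11.30, 11.32, 11.16, 11.41 and 11.07 at 24 h (-0.51, adjusted p = 0.570). Its groups did not overlap. The feedback inhibitors Socs3 (-0.45), Irak3 (-0.46) and Il1rn (the natural interleukin-1 antagonist, -0.46) and the receptor Il1r1 (-0.41) had the same sign but overlapped between the times. Slc39a14, a zinc and iron importer that interleukin-6 induces, was 10.68, 10.57, 10.73, 10.54 and 10.58 at 72 h, against 11.11, 10.74, 10.95, 11.02 and 10.77 at 24 h (-0.30, adjusted p = 0.787). Serpina6, the corticosteroid-binding globulin and a negative acute phase protein, ran the other way. It was 12.56, 12.43, 12.42, 12.58 and 12.49 at 72 h, against 12.04, 12.21, 12.04, 11.96 and 12.34 at 24 h (0.38, adjusted p = 0.570). No other of the 18 negative acute phase proteins and plasma carriers had an unadjusted p under 0.05 (5.56% higher, against 1.58% of all genes). Of 23 NF-kB and TNF targets, Cxcl1 (a neutrophil chemokine, -0.69) and Junb (-0.47) were lower at an unadjusted p under 0.05 (8.70%, against 1.68% of all genes). The list's median was 0.03. Without the narrow arrays 0 of the 23 were lower or higher by that criterion, and the median was -0.02.

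Cxcl9 and Cxcl10, the chemokines that interferon-gamma induces, had higher values at 72 h but did not pass. Cxcl9 was 8.75, 8.49, 8.32, 8.69 and 9.15 at 72 h, against 7.99, 8.19, 7.35, 8.23 and 8.28 at 24 h (0.68, adjusted p = 0.988). Cxcl10 had a difference of 0.75 (adjusted p = 0.570), with 4 of 5 arrays above every 24 h array. They were the 2 of 27 interferon response genes with an unadjusted p under 0.05 (7.41%, against 1.58% of all genes higher), and the median of the list was 0.07. Leaving out the narrow arrays, 1 was higher, against 2.52% of all genes.

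**Figure D3:**
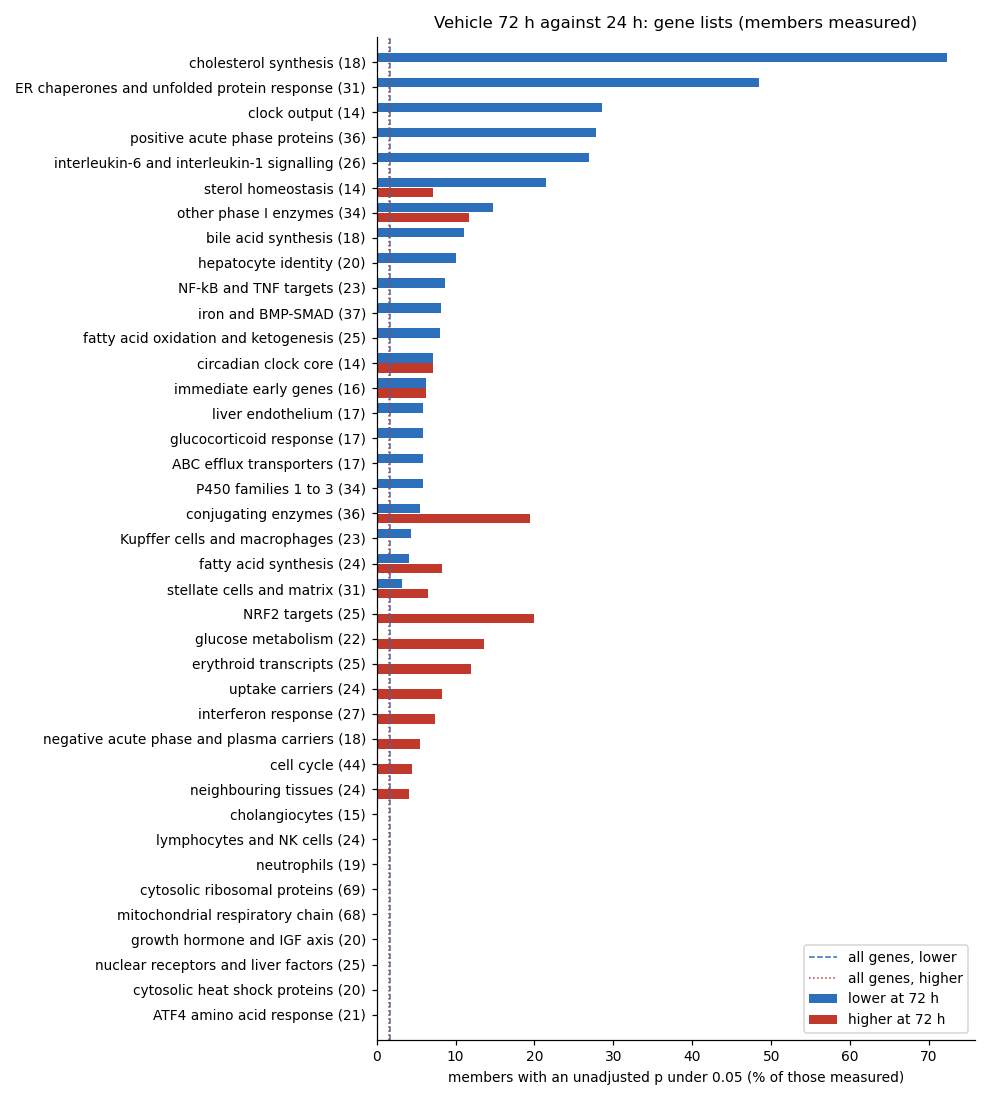
Share of the measured members of each of 39 gene lists (y axis, number measured in brackets) that were lower (blue) or higher (red) in vehicle livers at 72 h than at 24 h at an unadjusted p under 0.05 (x axis, %). The vertical lines give the same shares over all genes, 1.68% lower and 1.58% higher. Cholesterol synthesis (72.2%) and ER chaperones (48.4%) have the longest bars, both lower.

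Among the drug-metabolising enzymes 0 passed, and the conjugating enzymes held more members higher at 72 h than lower. Of 34 P450s of families 1 to 3, 2 were lower at an unadjusted p under 0.05 (5.88%, against 1.68% of all genes) and 0 higher, with a median of -0.02. The counts became 2 lower and 2 higher without the narrow arrays, with a median of 0.04, against 2.09% of all genes lower and 2.52% higher. Cyp1a2 was 12.34, 12.28, 12.25, 12.19 and 12.19 at 72 h, against 12.32, 12.38, 12.44, 12.42 and 12.47 at 24 h (-0.16, adjusted p = 1.00). Cyp3a9 was 9.88, 9.08, 9.19, 8.11 and 9.66 at 72 h, against 10.09, 10.29, 10.34, 9.55 and 10.06 at 24 h (-0.88, adjusted p = 0.873), with the 72 h arrays spread over more than 1 log2 unit. Of 36 conjugating enzymes, 7 were higher (19.4%, against 1.58% of all genes) and 2 lower (5.56%, against 1.68%), with a median of 0.05. The 7 held 5 glutathione S-transferases of the mu and alpha classes, Gsta3, Gstm1, Gstm2, Gstm3 and Gstm4, besides Gstt1 and the sulfotransferase Sult1c2. Gstm4 was 10.44, 10.32, 10.62, 10.45 and 10.26 at 72 h, against 10.27, 9.78, 10.22, 9.95 and 9.92 at 24 h (0.39, adjusted p = 0.199). Gstm3 (0.63) and Gsta3 (0.40) overlapped more, each with 3 of 5 arrays above. The mu-class genes are similar in sequence, and cross-hybridisation between them was not tested. Without the narrow arrays 3 conjugating enzymes were higher at an unadjusted p under 0.05, against 2.52% of all genes. Without 72 h array 3 there were 4, against 1.81% of all genes.

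The 2 conjugating enzymes that were lower at 72 h were Sult1a1 and Nnmt. Nnmt, which methylates nicotinamide, was 9.76, 10.11, 9.44, 9.66 and 10.07 at 72 h, against 10.42, 10.34, 10.15, 10.11 and 10.55 at 24 h (-0.51, adjusted p = 0.678). Its highest 72 h and lowest 24 h value both read 10.11. Of 34 other phase I enzymes, 5 were lower at an unadjusted p under 0.05 (14.7%, against 1.68% of all genes) and 4 higher (11.8%, against 1.58%), with a median of 0.00. The lower ones were Por (the electron donor of the P450s), the flavin monooxygenases Fmo2 and Fmo5, the alcohol dehydrogenase Adh7 and Ces2c, and the higher ones were Akr7a3, Ces1f, Ces2e and Ephx1. Ces2c and Ces2e, carboxylesterases that hydrolyse ester drugs, had differences of opposite sign. Ces2c was 8.61, 7.87, 8.32, 8.45 and 7.95 at 72 h, against 8.89, 9.51, 9.45, 8.94 and 8.51 at 24 h (-0.82, adjusted p = 0.0720). Ces2e ranged from 9.99 to 11.17 at 72 h and from 9.15 to 10.51 at 24 h (0.69, adjusted p = 1.00). Ephx1, microsomal epoxide hydrolase, was 12.99, 12.38, 12.78, 12.93 and 12.39 at 72 h, against 12.43, 12.23, 11.91, 12.17 and 12.24 at 24 h (0.50, adjusted p = 0.678). Ephx1 and Akr7a3, an aldehyde reductase (0.69, adjusted p = 1.00), also belong to the 25 targets of the oxidative stress factor NRF2. Of these targets 5 were higher at an unadjusted p under 0.05 (20.0%, against 1.58%) and 0 lower, with a median of 0.11. The 5 were Ephx1, Akr7a3, Nfe2l2, Gsta3 and Gstm1. Gsta3 and Gstm1 were already counted among the conjugating enzymes, so these lists share genes. In Ephx1 and Akr7a3 the lowest 72 h values were those of the narrow arrays 2 and 5. Of 25 nuclear receptors and liver transcription factors and of 17 ABC efflux transporters, 0 and 1 had an unadjusted p under 0.05. The 1 was Abca1, which was lower (5.88%, against 1.68% of all genes). Without the narrow arrays the counts of the 2 lists were 2 (both higher) and 0, against 2.09% of all genes lower and 2.52% higher.

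In energy metabolism 0 genes passed. Slc13a5, the citrate importer of hepatocytes, was 8.20, 8.55, 8.39, 7.92 and 8.94 at 72 h, against 9.97, 9.50, 9.77, 9.47 and 8.74 at 24 h (-1.09, adjusted p = 0.629). It was 2.13-fold higher at 24 h than at 72 h, and array 5 of each time lay within the range of the other. Of 22 glucose metabolism genes 3 had an unadjusted p under 0.05, all with the higher value at 72 h (13.6%, against 1.58% of all genes). Among them were Gckr, the inhibitor of glucokinase (0.30, adjusted p = 0.868), and Pklr, liver pyruvate kinase (0.57, 1.00). Without the narrow arrays 4 of the list were higher, against 2.52% of all genes. Scd, the desaturase that makes monounsaturated fatty acids, varied widely among animals. It was 12.21, 11.01, 10.38, 10.59 and 9.84 at 72 h, against 11.97, 8.62, 10.45, 9.40 and 9.23 at 24 h. Its difference was 0.87, with an unadjusted 95% interval of -0.27 to 2.02. In 68 subunits of the respiratory chain and 69 cytosolic ribosomal proteins, 0 had an unadjusted p under 0.05, and their medians were 0.01 and 0.02.

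Clock genes oscillate over the day in liver, and they differed among animals killed at the same nominal time. Dbp, a clock output factor, was 8.90, 7.88, 8.91, 7.75 and 9.41 at 72 h, against 8.92, 9.73, 8.87, 8.17 and 10.46 at 24 h. Npas2, a positive clock factor, was 9.31, 9.97, 8.95, 9.59 and 8.71 at 72 h, against 9.13, 8.16, 9.01, 8.96 and 7.32 at 24 h (0.79, adjusted p = 0.632). At both times array 5 had the highest Dbp and the lowest Npas2 of its group. Per3 (a repressor, -0.55, adjusted p = 1.00) was 8.46 on 24 h array 5, against 6.96 to 7.45 on the other 24 h arrays, and Tef, an output factor, had a difference of -0.33 (0.988). By an unadjusted p under 0.05, Per3 was lower and Npas2 higher among 14 core clock genes (7.14% each). Of 14 output genes 4 were lower (28.6%), among them Ces2c, and 0 were higher. Over all genes 1.68% were lower and 1.58% higher. Without the narrow arrays 1 core gene was lower and 3 were higher, and 4 output genes were lower and 2 higher. The shares of all genes were then 2.09% lower and 2.52% higher. The part of collection time in the differences above was not tested.

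Markers of other cells of the liver were read as lists. Of 23 macrophage genes Mpeg1 (perforin-2) was the one with an unadjusted p under 0.05 (4.35%, against 1.68% of all genes lower). Mpeg1 was 10.24, 10.36, 10.27, 10.54 and 10.76 at 72 h, against 10.84, 10.71, 10.81, 10.98 and 10.77 at 24 h (-0.39, adjusted p = 0.616). The list mean of the macrophage genes was 8.54 to 9.13 at 72 h and 8.61 to 8.98 at 24 h. Of 19 neutrophil, 24 lymphocyte and 15 cholangiocyte genes 0 had an unadjusted p under 0.05. Erythroid transcripts separated animals more than times. Their list mean was 7.47, 7.32, 8.14, 7.74 and 8.05 at 72 h, against 7.51, 7.63, 7.34, 7.48 and 7.24 at 24 h. Ahsp (the alpha-haemoglobin stabilising protein) was 5.46, 5.65, 8.56, 7.16 and 8.23 at 72 h, against 6.16, 6.44, 3.95, 6.01 and 5.78 at 24 h. Arrays 3, 4 and 5 at 72 h were high and arrays 1 and 2 were not, and the red cell anion exchanger Slc4a1 and Alox15 (15-lipoxygenase) showed the same 3 arrays high. The differences of Ahsp (1.34), Alox15 (1.30) and Slc4a1 (0.75) had an adjusted p of 1.00. Hamp, the iron hormone hepcidin that erythropoiesis lowers, was 12.89, 12.78, 11.55, 13.16 and 9.67 at 72 h, against 12.45 to 13.09 at 24 h, so that arrays 3 and 5 alone were low. Of the 25 erythroid genes, 3 were higher at an unadjusted p under 0.05, against 1.58% of all genes, with a median of 0.17.

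Vehicle livers were also set beside sham livers and those at 7 days. Derl3 averaged 6.85 ± 0.28 in sham livers, and 8.09 ± 0.27 (24 h), 6.88 ± 0.21 (72 h) and 6.90 ± 0.39 (7 days) in vehicle livers (SD, n = 5 each). Its difference from sham was 0.03 at 72 h (95% interval -0.41 to 0.47) and 1.23 at 24 h (0.80 to 1.67). Sqle lay -0.02 from sham at 72 h (-0.52 to 0.49) and 1.14 from it at 24 h (0.63 to 1.64). Adamts9 differed from sham by 0.05 at 72 h (-0.13 to 0.24) and by -0.44 at 24 h (-0.63 to -0.26). Slc17a3 lay above sham by 0.23 at 72 h (0.01 to 0.44) and below it by 0.34 log2 at 24 h (difference -0.34, -0.56 to -0.12). These 95% intervals are not adjusted for the number of genes. Il1r1 was 0.52 above sham at 72 h (0.20 to 0.85) and 0.93 above it at 24 h (0.61 to 1.25). Akr7a3 differed from sham by -0.87 at 72 h (-1.49 to -0.24) and by -1.56 at 24 h (-2.19 to -0.93), and Dbp by 0.92 at 72 h (0.24 to 1.60) and by 1.58 at 24 h (0.90 to 2.26). At 72 h 0 of these genes passed against sham by limma (adjusted p = 0.396 for each of Il1r1, Akr7a3 and Dbp, and 0.410 for Slc17a3). At 24 h Slc17a3 did not pass against sham by limma either (adjusted p = 0.124). Derl3 and Il1r1 (0.00192 each), Adamts9 (0.00780), Dbp (0.0110) and Sqle (0.0136) did pass at 24 h. These comparisons share the vehicle arrays with each other and the sham arrays, so they are given side by side and are no further evidence for the difference between the times.

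**Figure D4:**
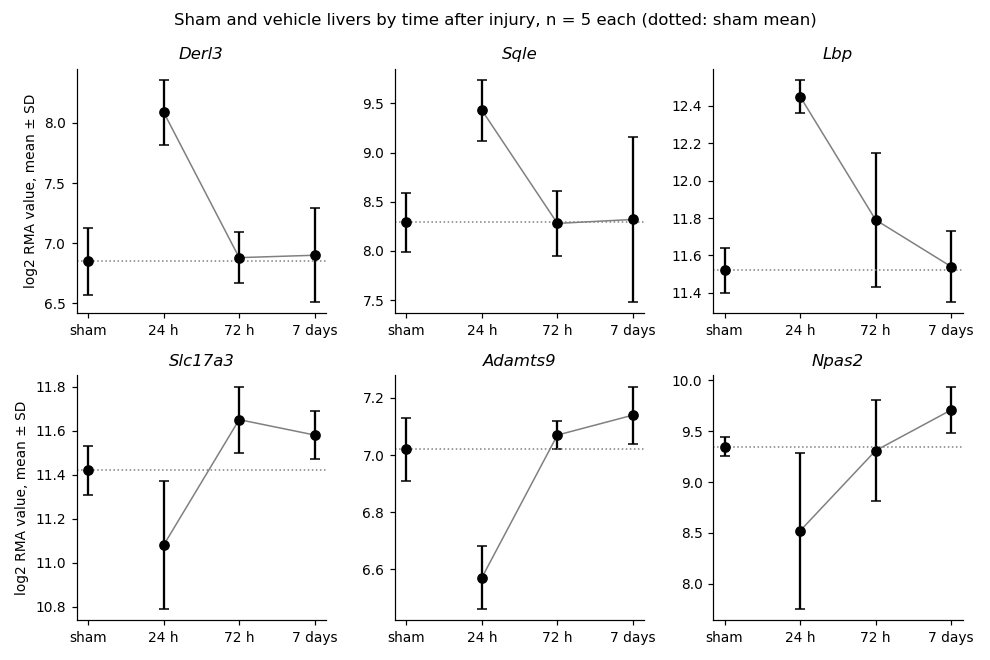
Log2 RMA value (y axis, mean ± SD, n = 5) in sham livers and in vehicle livers 24 h, 72 h and 7 days after injury (x axis), with the sham mean dotted. Derl3, Sqle and Lbp peak at 24 h and Slc17a3, Adamts9 and Npas2 are lowest there, and the 72 h means of Derl3 (6.88) and Sqle (8.28) lie next to those of sham (6.85 and 8.29).

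The same times in animals given a drug share no array with the vehicle comparison. In anakinra livers 0 of 14506 genes passed between 72 h and 24 h by limma (0.00%), with 572 at an unadjusted p under 0.05 (3.94%) and 35 passing with array weights. In EPO livers 278 passed (1.92%), 256 of them higher at 72 h (1.76%). Derl3 averaged 6.77 ± 0.30 in anakinra livers at 72 h and 7.80 ± 0.43 at 24 h (difference -1.03, adjusted p = 0.298), and 6.94 ± 0.30 in EPO livers at 72 h and 7.96 ± 0.38 at 24 h (-1.02, adjusted p = 0.00291). In both, all 5 arrays at 72 h lay below all 5 at 24 h. Adamts9 differed by 0.11 in anakinra (adjusted p = 1.00) and by 0.30 in EPO livers (0.0897), and Slc17a3 by 0.33 (1.00) and 0.19 (0.694). The contrast of vehicle with anakinra was -0.17 for Derl3 (95% interval -0.79 to 0.45), 0.38 for Adamts9 (0.12 to 0.64) and 0.24 for Slc17a3 (-0.07 to 0.55). The contrast of vehicle with EPO was -0.18 for Derl3 (-0.80 to 0.44), 0.20 for Adamts9 (-0.06 to 0.46) and 0.38 for Slc17a3 (0.07 to 0.69). The unadjusted interval thus left out 0 for Adamts9 against anakinra and for Slc17a3 against EPO, but neither contrast passed (adjusted p = 1.00 and 0.806). Of the 18 genes that passed or came next in vehicle livers, 17 had the same sign in anakinra and 16 in EPO livers, 9 and 8 of them with an unadjusted p under 0.05. Over all genes 58.1% had the same sign in vehicle and anakinra livers and 57.1% in vehicle and EPO livers, and 3.94% and 9.02% had an unadjusted p under 0.05 in anakinra and EPO livers in either direction. Ces2c, at -0.82 in vehicle livers, was the exception with anakinra (0.05), a contrast between the treatments of -0.87 (-1.36 to -0.37) that did not pass (adjusted p = 1.00).

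The cholesterol synthesis list was lower at 72 h in these animals as well, with 7 of 18 at an unadjusted p under 0.05 and a median of -0.34 in anakinra livers, and 14 of 18 and a median of -0.42 in EPO livers, against 1.92% and 3.03% of all genes lower. Sqle differed by -0.82 in anakinra (adjusted p = 1.00) and by -0.77 in EPO livers (0.125). Of the 31 ER genes 10 were lower in anakinra livers (median -0.16) and 3 were lower and 1 higher in EPO livers (median -0.11, with 2.03% of all genes higher in anakinra and 5.98% in EPO livers). The acute phase list had 5 lower and 1 higher of 36 with anakinra and 3 lower and 1 higher with EPO. Interleukin-6 and interleukin-1 signalling and the conjugating enzymes had counts of the opposite direction in EPO livers. Interleukin-6 and interleukin-1 signalling, with 7 lower and 0 higher of 26 in vehicle livers, had 2 lower and 1 higher with anakinra and 0 lower and 5 higher with EPO. The conjugating enzymes, with 7 higher and 2 lower of 36 in vehicle livers, had 6 higher and 1 lower with anakinra and 1 higher and 5 lower with EPO. Of the 34 P450s, 2 were lower and 0 higher in vehicle livers, and 2 were lower and 1 higher with anakinra. With EPO 9 P450s were lower and 0 higher. Stat3 differed by -0.32 with anakinra (adjusted p = 1.00) and by -0.04 with EPO (0.997).

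Whether the change between times depended on the drug was tested as an interaction. Between vehicle and anakinra 0 genes passed (168 at an unadjusted p under 0.05, 1.16%), and 0 did so under each alternative run for it. Between vehicle and EPO 23 passed (0.159%), all lower in vehicle. They were led by Rhag, a red cell membrane protein (difference between vehicle and EPO -2.05, SE 0.25, adjusted p = 1.17e-06 by limma), and Rrm2, a subunit of ribonucleotide reductase (-1.71, adjusted p = 0.000374). Rhag differed by 0.08 in vehicle and by 2.14 in EPO livers. None of the 18 genes above was among the 23. In a fit of the vehicle and EPO arrays at these times alone, 2 passed.

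**Figure D5:**
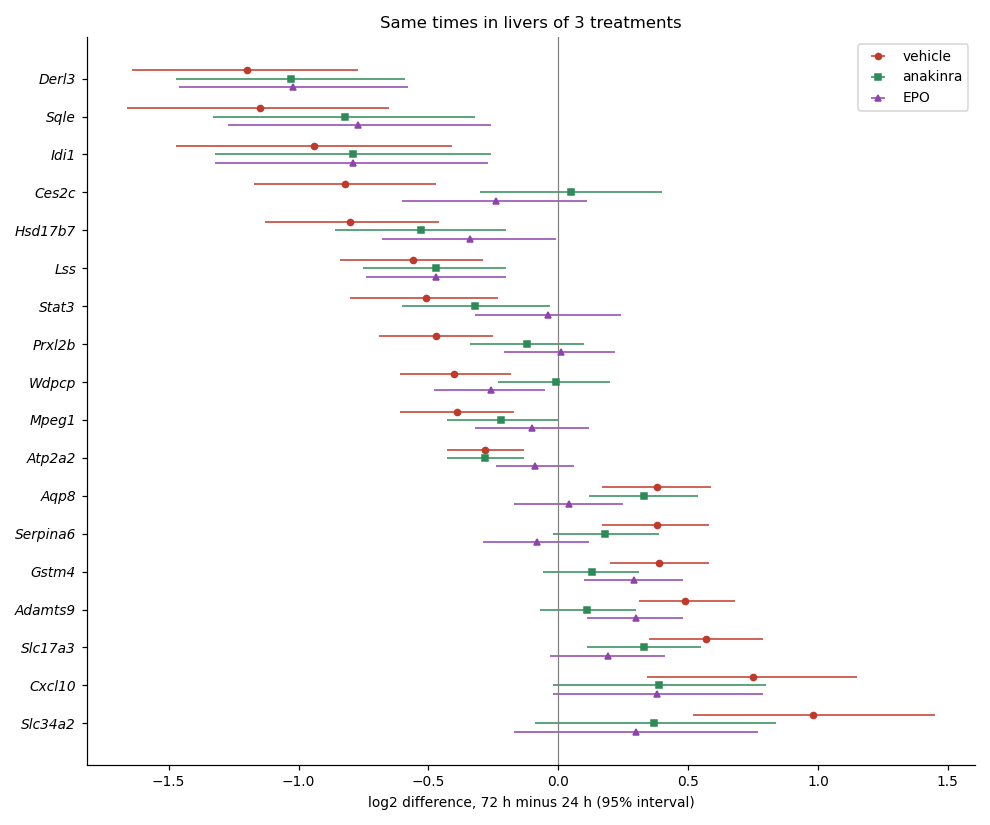
Difference between 72 h and 24 h (x axis, log2, 95% interval not adjusted for the number of genes) in vehicle (red), anakinra (green) and EPO livers (purple) for the 3 genes that passed and the 15 next by p-value in vehicle livers. Derl3 reads -1.20, -1.03 and -1.02 in the 3 treatments, and Ces2c reads -0.82 with vehicle and 0.05 with anakinra.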

How the data were processed

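Liver RNA of 50 rats, 10 groups of 5, was measured on 1 array each. Per the submitters' processing notes the authors ran RMA in the oligo package (versions not given in the sources used here), and the deposited values are log2 values. They were background-corrected and normalised by the authors, so scanner values, detection calls and genome positions of probes were not used here. The labels name a Cy3 dye, which was not used. Of 29214 probes, 15310 had 1 gene symbol, and each of 14506 genes was read from its probe of highest mean. Precision is set by the number of arrays, since there are no counts.

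The test was limma 3.58.1 (R 4.3.3) with 1 mean per group over all 50 arrays (40 residual degrees of freedom), two-sided, Benjamini-Hochberg over all genes, threshold 0.05. Steps were tested on simulated data. The comparison, the 39 gene lists (945 of 1081 genes measured) and the narrow arrays were chosen with earlier results of these data known. Genes named with values are those that passed, the 15 next by p, a fixed panel (61 of 69 measured), the 3 members of each list with the largest difference, and for the interactions the 5 with the smallest p. List members named without a value, and markers, were named after their values were seen. Alternatives were array weights, trend and robust eBayes, only the groups compared, without narrow arrays, scaling to 1 standard deviation, array SD as a covariate, mean of probes, a filter at a mean of 6, the replicate number as a block, and leaving out each array.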

Additional observations from a re-analysis of the deposited data

Results flagged for a closer look

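In 61 genes the spread of the 5 arrays was checked in both vehicle groups, 122 groups of values in all, and 1 had a sample far from the others by Dixon's criterion, which chance alone meets in about 1 group in 20. Ahsp was 3.95 on vehicle array 3 at 24 h, with 5.78 on the nearest and 6.44 on the farthest of the other 24 h arrays. That array is one of the narrow arrays.

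The difference between 72 h and 24 h was not the same in vehicle and EPO livers for 5 genes named by the rule, by the interaction test. The difference between vehicle and EPO was -2.05 for Rhag (0.08 in vehicle and 2.14 in EPO livers), -1.71 for Rrm2 (0.10 and 1.81), -1.60 for Tinagl1 (0.16 and 1.76), -1.18 for Slc25a37, the mitochondrial iron importer of red cell precursors (0.28 and 1.46), and -1.11 for Ank1, red cell ankyrin (0.13 and 1.24). Their adjusted p by limma ran from 1.17e-06 (Rhag) to 0.0129 (Ank1). In vehicle livers 0 of these 5 passed between the times.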

How the results depend on the processing

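The number of genes that passed between 72 h and 24 h in vehicle livers was 3 and moved to 8 with array weights, 6 with the array SD as a covariate, 1 without the narrow arrays, and 0 to 4 when 1 array was left out. Adding the replicate number as a block gave 3, the same genes. The deviations of same-numbered arrays from their group means had correlations of 0.54, -0.34, -0.57, -0.09 and -0.21. These values include the narrow arrays and cannot decide whether the numbers pair the animals. The block changed no other call beyond 1.5 times. The interaction with EPO counted 23 genes and moved to 78 with weights, 47 with the SD covariate, 2 with only the groups compared, and 7 to 44 with 1 vehicle array left out. The count in anakinra livers moved from 0 to 35 with weights, and the count in EPO livers from 278 to 547 with weights and 155 with only the groups compared. The cause of these shifts was not tested.

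No difference of the 61 genes followed, nor any median of the 4 lists followed, changed sign under the alternatives run. Over all 39 lists, 8 medians changed sign without the narrow arrays, each 0.06 or less in size (sterol transport -0.02 to 0.06, NF-kB and TNF targets 0.03 to -0.02, P450s -0.02 to 0.04, macrophages 0.04 to -0.03), and 0 did after scaling to 1 standard deviation. Of the gene values under the alternatives, 1130 kept their side of the threshold, 16 no longer passed (all of Derl3, Adamts9 or Slc17a3) and 13 came to pass, among them Hsd17b7 and Sqle. Derl3 stayed between -1.43 and -1.13. Of the counts and medians of the 4 lists followed, 147 stayed and 5 moved: the ER median was -0.31 without 24 h array 3, the acute phase count was 16 with weights and its median -0.16 without the narrow arrays, and the count of higher conjugating enzymes was 3 without the narrow arrays and 4 without 72 h array 3. Running the lists under all alternatives was chosen after seeing the data.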

Other observations

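Of 13904 probes without a single gene symbol, 0 passed between 72 h and 24 h in vehicle livers by limma over all probes, 326 had an unadjusted p under 0.05, and the smallest adjusted p was 0.179.

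Prxl2b, a prostaglandin F synthase, was 6.72, 6.78, 6.51, 6.52 and 6.77 at 72 h, against 7.59, 6.73, 7.18, 7.05 and 7.11 at 24 h (difference -0.47, adjusted p = 0.143), and passed without 24 h array 2, the low one of its group (-0.57, adjusted p = 0.0300). Wdpcp, a planar cell polarity protein of cilia, was low on the same array, with 6.40 against 6.78 to 7.25 on the other 24 h arrays and 6.29 to 6.74 at 72 h, and passed without it as well (-0.52, adjusted p = 0.0300). Ces2c passed without 24 h array 5 (-0.95, adjusted p = 0.0342).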
